A study of Mus musculus with 12 samples.

Results

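Fkbp5, Etnppl, Mt1, Mt2 and Crhbp are genes that respond to stress hormones or bind one, and their FPKM values were followed here in brain tissue of mice that lack the BK channel. The genes were taken by symbol from the gene tables of hippocampus and cortex, and 5 of 5 were found among the 1017 genes listed in either table. The hippocampus table held 4 of them among 652 genes and the cortex table held 5 among 561 genes. Crhbp was listed in cortex and not in hippocampus, so its hippocampal level was not analysed here. Each table lists solely genes that the study had called different between BK KO and WT mice, and these 5 were picked from them by name with their changes known. Their differences are therefore given as a description, with standard errors and without p-values.

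The study sequenced mRNA from hippocampus and cortex of adult C57BL/6 mice, with 3 libraries per genotype and tissue and 12 libraries in all. WT mice carried the intact Kcnma1 gene, and BK KO mice (kcnma1-/-) were homozygous for a frameshift deletion made in it with CRISPR/Cas9, which is carried by all cells of the body and not only by neurons. Heterozygous parents gave mice of both genotypes. No treatment was given in the labels. The study states young adult male BK KO mice for its later experiments and only adult mice for the sequenced tissue, and no hormone level was among the values used here. FPKM counts the fragments of a gene scaled by transcript length and by the size of the library. The authors do not name the unit of their values per library, which are taken as FPKM here.

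Glucocorticoids, released by the adrenal gland under stress, enter cells and bind the glucocorticoid receptor, which then switches genes on from the nucleus. Fkbp5 encodes FKBP51, a co-chaperone of heat shock protein HSP90 that lowers the hormone affinity of this receptor, and it is itself induced by the receptor, forming a short feedback loop. Mt1 and Mt2 encode metallothioneins, small cysteine-rich proteins that bind zinc and copper and are induced by metals as well as by glucocorticoids. Etnppl encodes an enzyme that breaks down phosphoethanolamine and is found in the brain mainly in astrocytes. Crhbp encodes a secreted protein that binds corticotropin-releasing hormone (CRH), the peptide that starts the hormonal stress response, and in the forebrain it is made largely by inhibitory interneurons.

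The promoters of the metallothionein genes are shown because both genes lie side by side on chromosome 8, with 0 annotated gene starts between theirs, and because metal response elements are a textbook feature of them. Each window is RefSeq sequence of GRCm38.p6 on the plus strand, from 250 bases before to 50 bases after the gene's start. Mt2 is at chr8:94172368-94172667 and Mt1 at chr8:94178839-94179138. Capitals mark the metal response element core, searched on both strands as TGCACNC or TGCGCNC.
Mt2: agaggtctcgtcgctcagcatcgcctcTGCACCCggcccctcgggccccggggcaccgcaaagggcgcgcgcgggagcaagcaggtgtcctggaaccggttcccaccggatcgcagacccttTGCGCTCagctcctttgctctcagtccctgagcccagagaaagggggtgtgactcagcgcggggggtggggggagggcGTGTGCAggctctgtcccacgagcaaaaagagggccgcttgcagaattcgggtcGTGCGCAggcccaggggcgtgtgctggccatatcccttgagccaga
Mt1: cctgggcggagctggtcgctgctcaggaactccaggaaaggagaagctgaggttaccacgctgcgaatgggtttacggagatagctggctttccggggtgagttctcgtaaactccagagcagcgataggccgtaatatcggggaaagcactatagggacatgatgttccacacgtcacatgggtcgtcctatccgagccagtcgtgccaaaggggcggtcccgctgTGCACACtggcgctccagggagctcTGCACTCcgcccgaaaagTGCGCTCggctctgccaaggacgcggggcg
The Mt2 window held 4 cores and the Mt1 window 3. Among all 32851 promoter windows of the same length, 25.7% held at least 1 core, 1.97% held 3 or more and 0.517% held 4 or more. Of the windows of the other genes, 1 of the pair for Etnppl held 1 core, and those of Fkbp5 and Crhbp held 0. The full glucocorticoid response element, searched on both strands as AGAACA, 3 free bases and TGTTCT, had 0 matches in the windows of the 5 genes. The left arm alone, AGAACA, also had 0 matches there. The shares of all promoter windows with at least 1 match were 0.00913% for the full element and 19.0% for the arm. A match describes letters in the window, and no match says no more than that these letters were not within it.

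Kcnma1 RNA was lower in every BK KO library than in every WT library. The gene was at 9.67 to 11.3 FPKM in WT and 2.54 to 2.82 FPKM in BK KO hippocampus, and at 9.82 to 11.98 FPKM in WT and 2.76 to 3.09 FPKM in BK KO cortex. Read totals are not in the tables, and sequencing depth is therefore unknown. Since so few genes are listed, the tissue labels could not be checked against markers of hippocampus or cortex. In bulk tissue, more cells of a type and more RNA per cell cannot be told apart.

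Fkbp5 was more than doubled in BK KO mice in both tissues. WT libraries 1 to 3 of hippocampus had 7.36, 10.6 and 7.17 FPKM, against 21.3, 19.1 and 26.3 FPKM for BK KO libraries 1 to 3. The groups did not overlap, and the lowest BK KO value was 1.80 times the highest WT value. The means were 8.38 ± 1.93 FPKM (SD, n = 3) and 22.2 ± 3.69 FPKM (SD, n = 3), a ratio of 2.65. The WT cortex libraries had 9.90, 9.01 and 7.004 FPKM, and those of BK KO cortex 19.7, 14.4 and 27.4 FPKM. Here too every BK KO library lay above every WT library, with BK KO library 2 the lowest of its group. The cortical means were 8.64 ± 1.48 FPKM (SD, n = 3) and 20.5 ± 6.57 FPKM (SD, n = 3), a ratio of 2.37. On log2(FPKM + 1) the log2 fold change of Fkbp5 was 1.32 (SE 0.18) in hippocampus and 1.12 (SE 0.24) in cortex.

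Etnppl had the largest fold among the 5 genes in both tissues, and also the widest spread among WT mice. WT hippocampus libraries had 4.62, 9.43 and 6.40 FPKM, compared with 20.8, 13.7 and 25.8 FPKM after loss of the channel. For cortex the WT values were 4.79, 10.8 and 6.99 FPKM, and the BK KO values 19.8, 17.7 and 30.7 FPKM. WT library 2 was the highest WT library of both tissues and BK KO library 2 the lowest BK KO library, yet the groups did not overlap in either tissue. The mean went from 6.81 ± 2.43 to 20.1 ± 6.08 FPKM (SD, n = 3 each) in hippocampus, a ratio of 2.95, and from 7.51 ± 3.02 to 22.7 ± 6.98 FPKM (SD, n = 3 each) in cortex, a ratio of 3.03. The log2 fold change was 1.44 (SE 0.29) in hippocampus and 1.503 (SE 0.31) in cortex. The WT standard deviation was 35.7% of the mean in hippocampus and 40.2% in cortex, whereas for the other members it lay between 6.42% and 23.0%.

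Mt2 was higher in BK KO mice, but by margins that were thin in 1 library of each tissue. Hippocampal values were 350.1, 439 and 382 FPKM for WT and 803, 447 and 687 FPKM for BK KO mice. Cortical values were 350.3, 378 and 333 FPKM for WT and 663, 385 and 767 FPKM for BK KO mice. BK KO library 2 of both tissues sat just above the WT range, at 1.02 times the highest WT value in each, while the other BK KO libraries were far above it. The means were 390.2 ± 44.8 and 646 ± 182 FPKM (SD, n = 3 each) in hippocampus, and 354 ± 22.7 and 605 ± 198 FPKM (SD, n = 3 each) in cortex. The ratios of these means were 1.65 and 1.71, and the log2 fold changes 0.69 (SE 0.22) and 0.72 (SE 0.26). The BK KO standard deviation was 28.1% and 32.7% of the mean, against 11.5% and 6.42% in WT mice.

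Mt1, the neighbouring gene, differed less in FPKM. The hippocampus of WT mice gave 35.8, 44.0 and 40.1 FPKM, and that of BK KO mice 59.9, 47.1 and 52.6 FPKM. The cortex of WT mice gave 39.4, 35.1 and 30.0 FPKM, and that of BK KO mice 48.1, 38.7 and 68.5 FPKM. The groups stayed apart in hippocampus and overlapped in cortex, where BK KO library 2 lay below WT library 1. The ratios of the group means were 1.33 in hippocampus and 1.49 in cortex, and the log2 fold changes 0.40 (SE 0.13) and 0.53 (SE 0.22).

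Crhbp, the binding protein of CRH, was also higher in the cortex of BK KO mice. Its WT values were 11.9, 9.78 and 10.5 FPKM, and its BK KO values 19.2, 29.2 and 15.9 FPKM. The groups did not overlap, and here BK KO library 2 was the highest and BK KO library 3 the lowest of the group, the reverse of the other 4 genes in this tissue. The mean doubled from 10.7 ± 1.08 to 21.4 ± 6.95 FPKM (SD, n = 3 each), a ratio of 2.00 and a log2 fold change of 0.90 (SE 0.22).

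**Figure D1:**
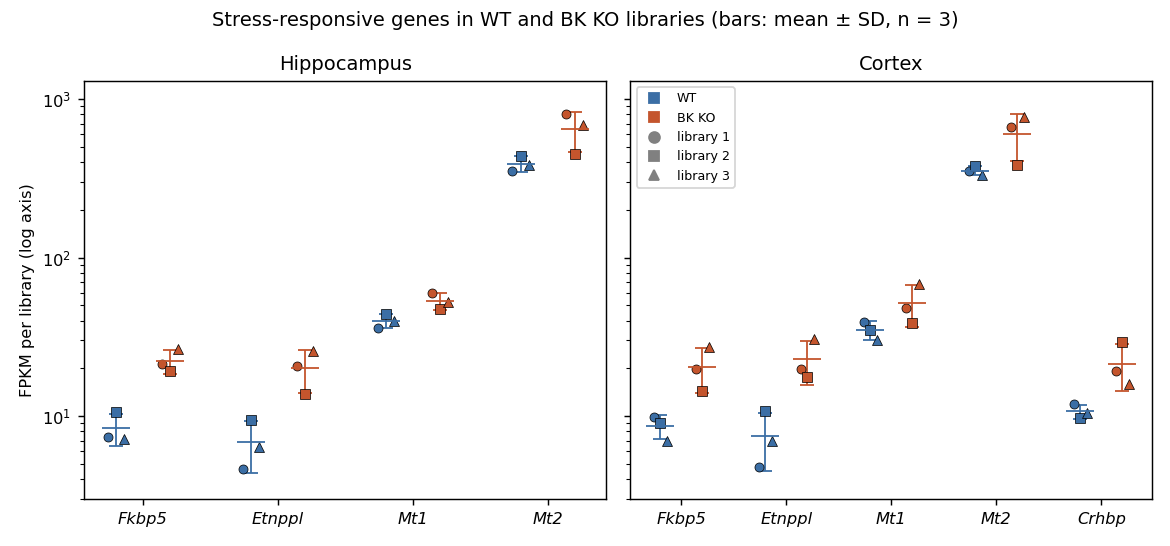
FPKM of each gene in every library on a log axis, hippocampus on the left and cortex on the right, WT in blue and BK KO in orange, with the library number as the symbol and mean ± SD of 3 libraries as bars. Fkbp5 and Etnppl are well apart between genotypes, while BK KO library 2 (squares) of Mt1 and Mt2 sits next to the WT values, and below WT library 1 for Mt1 in cortex.

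The 4 genes listed in both tables stood at like levels in both tissues. In WT mice their hippocampal and cortical ranges overlapped for each gene, as they did in BK KO mice. The tables were deposited separately, so the levels are set side by side and not tested. In WT cortex the order by FPKM was Mt2, Mt1, Crhbp, Fkbp5 and Etnppl. Mt2 stood above Mt1 and Mt1 above Crhbp in every library. The ranges of Crhbp and Fkbp5 overlapped, and so did those of Fkbp5 and Etnppl.

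A gene was counted past the threshold where limma gave an unadjusted p-value under 0.05 on log2(FPKM + 1) and the log2 fold change was beyond 0.58, which was the size limit of the study. In hippocampus 3 of 4 members were past it in the higher direction, as were 20.7% of the 652 listed genes (42.6% in either direction). In cortex 4 of 5 were past it in the higher direction, as were 10.9% of the 561 listed genes (30.8% in either direction). Mt1 was the member that was not past it in either tissue. The groups did not overlap, with BK KO higher, in 4 of 4 members in hippocampus and 4 of 5 in cortex, against 32.8% and 24.2% of the listed genes. Since the members were chosen on this contrast, nothing is read from these shares. The shares past the threshold also depend on the 1 added to FPKM, which shrinks the fold of low genes. Mean FPKM was under 1 for 209 listed genes of hippocampus and 216 of cortex, and for none of the members. With 0.1 added, 548 and 408 listed genes were past the threshold, against 278 and 173. Mt2 was the least stable of the calls. With limma's trend setting it was not past the threshold in either tissue, and with 1 library left out it was past it in 3 of 6 fits in hippocampus and in 1 of 6 in cortex, the latter without BK KO library 2. Fkbp5, Etnppl and Crhbp were past it in every such fit of each tissue that lists them. These fits reuse the values on which the members were chosen. They describe how far a call leans on 1 library and give no support to the differences. Mt1 was past it in 0 of 6 fits in hippocampus and 1 of 6 in cortex, again without BK KO library 2, where its log2 fold change was 0.71.

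**Figure D2:**
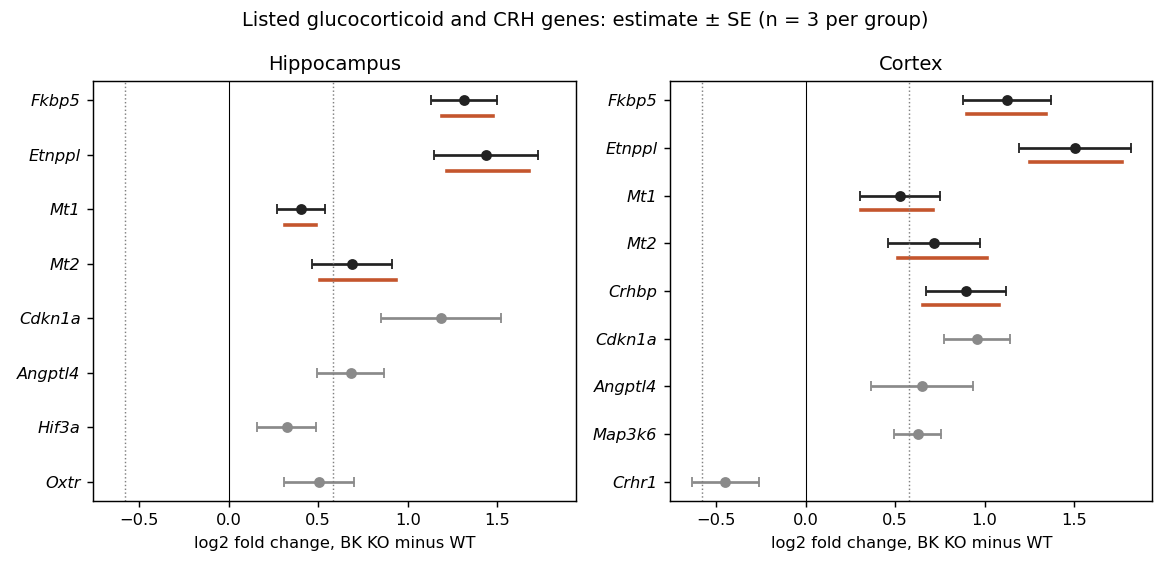
Log2 fold change (BK KO minus WT, on log2(FPKM + 1)) of the listed glucocorticoid-induced and CRH genes, with the standard error as black or grey bars (n = 3 per group) and dotted lines at 0.58 in either direction. Orange lines under the members span the estimates with each library left out, from 0.31 to 0.49 for Mt1 and from 1.19 to 1.48 for Fkbp5 in hippocampus.

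A list of 32 glucocorticoid-induced genes, which includes Fkbp5, Etnppl, Mt1 and Mt2, had 7 genes listed in each tissue. All 7 were higher in BK KO mice in hippocampus and all 7 in cortex, of which 5 and 5 were past the threshold. Of all listed genes, 41.7% and 29.2% had a log2 fold change above 0. The members make up 4 of these 7 in each tissue and were picked for being higher, so the count and the median log2 fold change of 0.69 in hippocampus and 0.72 in cortex, which is the value of Mt2, say nothing beyond that choice. The 3 listed genes of the list that are not members were higher in 3 of 3 cases in each tissue, 2 of them past the threshold, with a median log2 fold change of 0.68 in hippocampus and 0.65 in cortex. The median over all listed genes was -0.27 and -0.33, and the list was itself written with earlier results known. The others of the list gave no value, because a gene that is not in a table was not among those called.

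Cdkn1a, which encodes the cell cycle inhibitor p21, was listed in both tissues. Its hippocampal values were 21.2, 8.32 and 14.2 FPKM for WT and 41.0, 23.9 and 34.5 FPKM for BK KO mice, with a log2 fold change of 1.19 (SE 0.34). Its cortical values were 21.8, 14.9 and 18.6 FPKM for WT and 35.5, 30.7 and 44.1 FPKM for BK KO mice, with a log2 fold change of 0.96 (SE 0.18). The groups were apart in both tissues, and BK KO library 2 was again the lowest of its group. Angptl4, which encodes an inhibitor of lipoprotein lipase, was also in both tables, at a mean of 1.08 ± 0.449 FPKM in WT and 2.31 ± 0.478 FPKM in BK KO hippocampus (SD, n = 3 each) and of 1.62 ± 0.922 and 2.91 ± 0.196 FPKM in cortex (SD, n = 3 each). It was past the threshold in hippocampus and not in cortex. Hif3a, a member of the hypoxia-inducible factor family, was listed in hippocampus at 0.926 ± 0.209 FPKM in WT and 1.43 ± 0.429 FPKM in BK KO mice (SD, n = 3 each), with overlapping groups. Map3k6, a stress-activated kinase, was listed in cortex at 1.42 ± 0.150 and 2.76 ± 0.555 FPKM (SD, n = 3 each), with groups apart and a log2 fold change of 0.63 (SE 0.13).

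Genes that act upstream of the members were mostly not listed. Of 15 corticosteroid receptors, receptor chaperones and steroid enzymes, among them the glucocorticoid receptor gene Nr3c1, 0 were listed in hippocampus and 0 in cortex. Of 16 genes of the CRH and pituitary-adrenal axis, 2 were listed in cortex and 1 in hippocampus. Besides Crhbp, cortex had Crhr1, the receptor that CRH acts on, with 2.68, 3.07 and 4.34 FPKM for WT and 2.84, 1.95 and 1.78 FPKM for BK KO mice. Its groups overlapped, its log2 fold change was -0.45 (SE 0.19) and it was not past the threshold, so the binding protein and the receptor of CRH stood in opposite directions by these means. Oxtr, the oxytocin receptor, was listed in hippocampus at 1.34 ± 0.466 FPKM in WT and 2.32 ± 0.673 FPKM in BK KO mice (SD, n = 3 each), with overlapping groups. Of 15 metallothioneins and zinc handling genes Mt1 and Mt2 were the ones listed, and of 12 genes of phosphoethanolamine metabolism Etnppl was. Of 16 heat shock and unfolded protein genes, 1 was listed in hippocampus and 0 in cortex. This was Cryab, a small heat shock protein, which was lower in BK KO mice, at 67.3 ± 21.5 FPKM in WT and 38.3 ± 2.28 FPKM in BK KO hippocampus (SD, n = 3 each).

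The spread between libraries of the same group was then compared between genes, since it does not use the size of the difference between genotypes. The study's p-value limit depends on this spread as well, so the spread is not free of the selection. For each gene the mean of its genotype and tissue was taken from log2(FPKM + 1), and the deviations were correlated over the 12 libraries. Fkbp5 and Mt1 deviated together (r = 0.86), as did Mt1 and Mt2 (r = 0.83) and Fkbp5 and Mt2 (r = 0.75). For Etnppl r was 0.67 with Mt2, 0.62 with Fkbp5 and 0.51 with Mt1. The order of the pairs differed between tissues. Over the 6 hippocampus libraries, r with Etnppl was 0.89 for Fkbp5, 0.79 for Mt2 and 0.78 for Mt1, against 0.54 for Fkbp5 with Mt1, 0.57 for Fkbp5 with Mt2 and 0.90 for Mt1 with Mt2. Over the 6 cortex libraries, r with Etnppl was 0.44, 0.57 and 0.42, against 0.99, 0.87 and 0.83. Over all 8515 pairs of the 131 genes that both tables list with a mean of at least 1 FPKM, the median r was 0.05 and the 5th and 95th percentiles were -0.63 and 0.76. A value as high as that of Fkbp5 and Mt1 was found in 1.84% of these pairs, and one as high as that of Mt1 and Mt2 in 2.91%. For Fkbp5 with Mt2 the share was 5.23%. For Etnppl with Mt2, Fkbp5 and Mt1 it was 8.96%, 11.2% and 16.7%. Shares of this kind were not computed for r over 6 libraries, so those values have no such background here. The 12 libraries are not independent points, since the study took both tissues from 3 mice per genotype, and all genes of a library share its depth and preparation. The labels do not say whether hippocampus and cortex of the same number came from 1 mouse.

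BK KO library 2 was low within its group for these genes, though not always the library farthest from the group mean. Its deviation was the lowest of the BK KO group in both tissues for Fkbp5, Etnppl, Mt1 and Mt2, from -0.17 for Mt1 in hippocampus to -0.59 for Mt2 in cortex. For Mt2 it was the farthest from the mean in both tissues. For Fkbp5 BK KO library 3 lay farther, at 0.25 against -0.20 in hippocampus and 0.45 against -0.44 in cortex. BK KO library 2 of both tissues was then left out of the correlation, while the group means still included it. This gave r = 0.78 for Fkbp5 with Mt1, 0.76 for Mt1 with Mt2 and 0.61 for Fkbp5 with Mt2. For the pairs with Etnppl r was between 0.37 and 0.59. Within the 6 WT libraries alone, r was 0.87 for Fkbp5 with Mt1, 0.80 for Fkbp5 with Mt2, 0.80 for Etnppl with Mt2, 0.71 for Mt1 with Mt2, 0.34 for Fkbp5 with Etnppl and 0.17 for Etnppl with Mt1. Etnppl deviated alike in libraries of the same number from both tissues (r = 0.94 over 6 numbers), as did Mt2 (r = 0.87), with Fkbp5 at 0.65 and Mt1 at 0.10. The median of the 131 genes was 0.46.

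**Figure D3:**
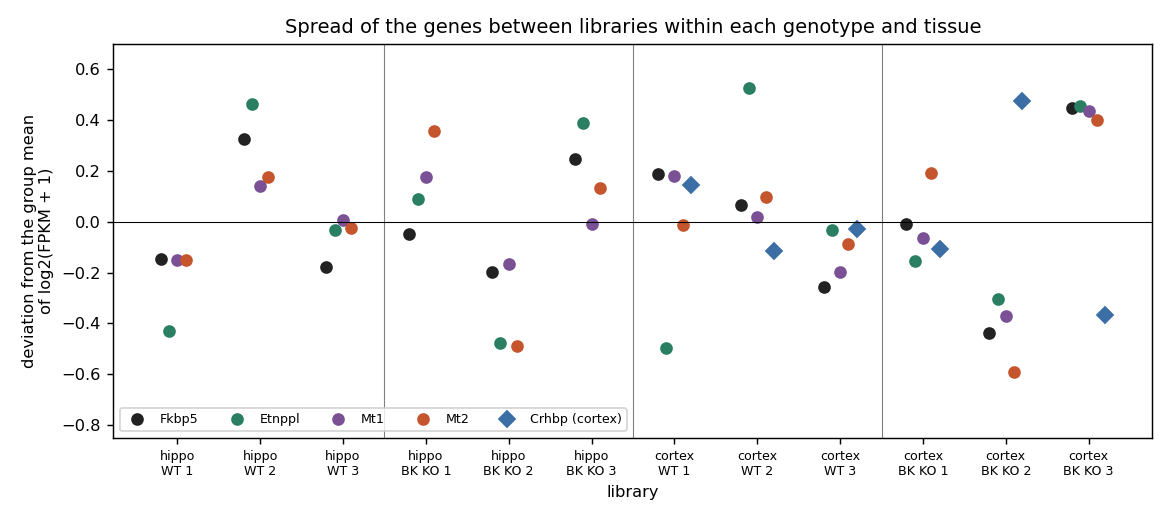
Deviation of each gene from the mean of its genotype and tissue, on log2(FPKM + 1), for each of the 12 libraries, with grey lines between the 4 groups. In BK KO library 2 of cortex Fkbp5, Etnppl, Mt1 and Mt2 lie below 0 and Crhbp lies above it at 0.48, and in BK KO library 3 the order is turned around.

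Crhbp deviated against all the other members in BK KO libraries 2 and 3 of cortex, and not against all of them in WT libraries 1 to 3. Over the 6 cortex libraries its deviations had r = -0.96 with Mt2, -0.77 with Fkbp5, -0.74 with Mt1 and -0.73 with Etnppl. With BK KO library 2 left out of the correlation, though not of the group mean, these were -0.87, -0.50, -0.49 and -0.80. In WT libraries 1 to 3 of cortex, Crhbp deviated by 0.14, -0.12 and -0.03. Fkbp5 deviated by 0.19, 0.07 and -0.26 there and Mt1 by 0.18, 0.02 and -0.20, with the sign of Crhbp in libraries 1 and 3. Etnppl deviated by -0.50, 0.53 and -0.03 and Mt2 by -0.01, 0.10 and -0.09, with the opposite sign in libraries 1 and 2. With Gad2, which encodes an enzyme that makes the inhibitory transmitter GABA, the deviations of Crhbp had r = 0.80. With BK KO library 2 left out in the same way, r was 0.37. Cortical Gad2 had 14.3, 15.6 and 12.9 FPKM for WT and 19.1, 33.1 and 20.6 FPKM for BK KO mice, so the same BK KO library was the highest for both genes. Of 15 interneuron markers, 2 were listed in cortex, Gad2 and Crhbp itself, and their sum was 23.4 to 26.2 FPKM in WT and 36.5 to 62.3 FPKM in BK KO libraries. Their part in the level of Crhbp was not tested.

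By the same measure, the 5 genes most like each member were named among those with a mean of at least 1 FPKM. For Fkbp5 these were Mt1, Aif1l, Igfbp3, Ucp2 and Mt2, with r from 0.86 down to 0.75 over 12 libraries and 130 genes compared. Aif1l was lower in BK KO mice, at 2.64 ± 0.351 FPKM in WT and 1.56 ± 0.392 FPKM in BK KO hippocampus (SD, n = 3 each), although its deviations ran with those of Fkbp5. Etnppl was most like Heyl (r = 0.88), a target of Notch signalling, followed by Trip6, Aif1l, Sap25 and Pltp, down to r = 0.73. Mt1 was most like Fkbp5, Mt2, Aif1l, Maff and Car2, and Mt2 most like Maff (r = 0.92), a small Maf transcription factor, then Mt1, Fkbp5, Cry1 and Etnppl. The other 3 members listed in both tables were thus all among the closest 5 of Mt2. For Crhbp, over 6 cortex libraries and 344 genes, the closest were Slc16a14 (r = 0.99), Amph, Igfbp4, Bmp3 and Tmem159, the last at r = 0.92.

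The metallothioneins changed order when base means were read in place of FPKM. A base mean is the authors' mean of depth-normalized read counts over a group, with no correction for transcript length. On this scale Mt1 was at 4699 in WT and 7967 in BK KO hippocampus and at 4846 and 8385 in cortex, while Mt2 was at 2312 and 4169.7 in hippocampus and at 2336 and 3872 in cortex. By base mean Mt1 thus stood 2.03 times above Mt2 in WT hippocampus, and by FPKM Mt2 stood 9.76 times above Mt1. In WT cortex these were 2.07 and 10.1 times. One FPKM of Mt2 corresponded to a base mean of 5.92 in WT hippocampus, the lowest of the 382 genes with at least 1 FPKM in both groups, and 1 FPKM of Mt1 to 118. The median gene had 94.7. The annotated coding transcripts are 388 to 511 bases long for Mt2 and 549 to 1085 bases for Mt1 (GENCODE release M21), so their lengths differ far less than the 19.8 times between these values. Fkbp5 and Etnppl, with longest transcripts of 3858 and 4468 bases, had 94.7 and 80.8.

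**Figure D4:**
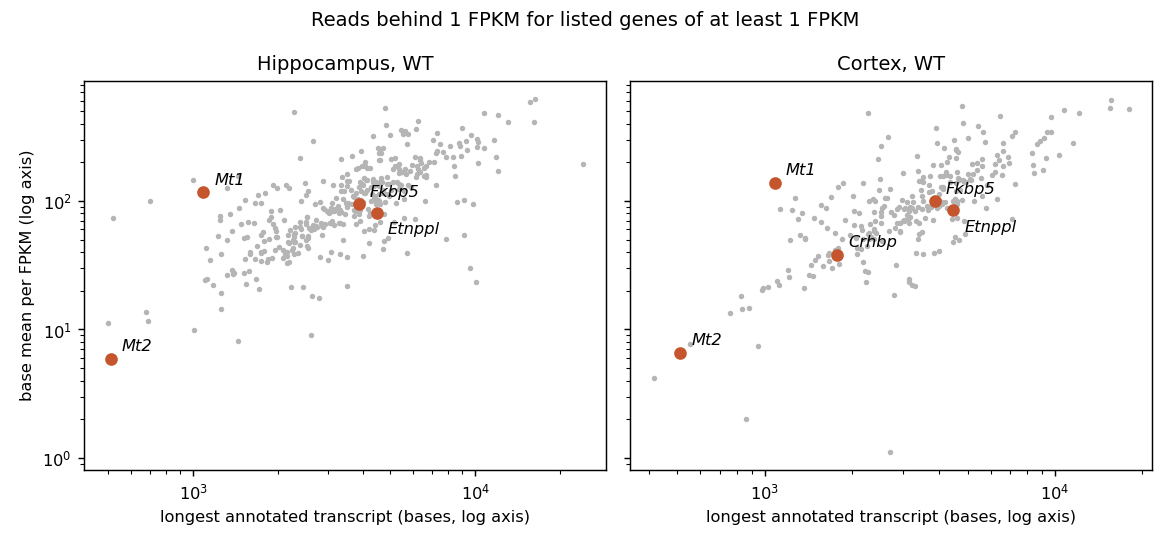
Base mean per FPKM in WT mice against the longest annotated transcript, both on log axes, for listed genes with at least 1 FPKM in both groups (grey) and the members (orange). Mt2 sits at the lower left, at 5.92 and 6.61, and Mt1 lies far above it, at 118 in hippocampus and 139 in cortex.

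This amount also differed between genotypes for Mt1. Its base mean per FPKM was 118 in WT and 149.7 in BK KO hippocampus, a ratio of 1.27, the highest of the 382 genes, against a median ratio of 0.981 over these genes. In cortex it was 139 and 162, a ratio of 1.16, which ranked 5 of 287 genes. The genotype difference of Mt1 was therefore larger by base mean than by FPKM in both tissues. For Fkbp5 the ratio was 0.990 in hippocampus and 0.977 in cortex, for Crhbp 0.992 in cortex, for Mt2 1.09 and 0.969, and for Etnppl 0.911 and 0.899. All members were higher in BK KO mice on both scales. The FPKM of Mt2 was 8.89 to 11.1 times that of Mt1 in the 6 WT libraries and 9.49 to 13.8 times in the 6 BK KO libraries. How the authors' counting shared reads between the transcripts of Mt1 was not given in the sources used here, so its FPKM is uncertain.

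The listed markers of other cells are given here beside the members. Each was listed because the study had called it different, and the markers that are not listed have no value here. Of 15 astrocyte markers, a list that holds Etnppl, 2 were listed in cortex, and the other was Gfap, the filament protein of astrocytes, with 42.5, 50.4 and 23.1 FPKM for WT and 92.2, 82.6 and 50.9 FPKM for BK KO mice. Gfap and Etnppl summed to 30.0 to 61.1 FPKM in WT and 81.6 to 112 FPKM in BK KO cortex, and in hippocampus Etnppl was the 1 listed. BK KO library 3, the highest for Etnppl in cortex, was the lowest of its group for Gfap. Of 12 endothelial markers, 2 were listed in each tissue, Tek and Slco1c1, both lower in BK KO mice, with a sum of 16.0 to 27.6 FPKM in WT and 10.7 to 13.2 FPKM in BK KO hippocampus. In cortex that sum was 16.6 to 22.3 and 10.2 to 13.8 FPKM. Of 15 interneuron markers, 5 were listed in hippocampus, where Gad2, Reln, Nos1 and Tac1 had higher and Lamp5 a lower mean without the channel, and their sum was 64.2 to 117 FPKM in WT and 101 to 134 FPKM in BK KO libraries. Of 17 skeletal muscle markers, 14 were found in the cortex table, each with the lower mean in BK KO mice, with a sum of 28.0 to 91.5 FPKM in WT and 7.54 to 9.81 FPKM in BK KO libraries. Of all genes listed in cortex, 29.2% had a log2 fold change above 0. Without WT library 1, which had the highest muscle sum, the cortical log2 fold change was 1.22 for Fkbp5, 1.26 for Etnppl, 0.62 for Mt1, 0.71 for Mt2 and 0.97 for Crhbp. Mt1 and Mt2 were not past the threshold in this fit. Every remaining WT library still had a higher muscle sum than any BK KO library, so the fit does not remove that difference. The pituitary hormone gene Gh was listed at 0 in the WT hippocampus libraries and was at 0.120, 0.184 and 57.5 FPKM in BK KO libraries 1 to 3, and was the 1 listed of 10 pituitary markers. Without that BK KO library 3 the hippocampal log2 fold change was 1.19 for Fkbp5, 1.24 for Etnppl, 0.41 for Mt1 and 0.62 for Mt2. Mt1 and Mt2 were not past the threshold in this fit either. Of 10 hypothalamus and thalamus markers, Trh was listed in hippocampus, at 0.345 to 3.43 FPKM in WT and 4.09 to 11.6 FPKM in BK KO libraries, and 0 of 9 choroid plexus markers were listed in either tissue. The part of these markers in the levels of the 5 genes was not tested.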

How the data were processed

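Poly-A RNA, with 2 μg of total RNA as input, was sequenced by the authors in paired ends. The aligner, the read counter and the annotation are not given in the sources used here. The submitters' processing notes name DESeq 1.10.1 and the build mm9, and no coordinate of the files was used. The values deposited per library are taken as FPKM, a unit the authors do not name, because the base mean per FPKM rose with transcript length across genes (Spearman's rho 0.71 in hippocampus and 0.74 in cortex). Any unit scaled by length would give such a rise, so it does not single out FPKM. The deposited base means are a normalized signal, counts divided by size factors and averaged by the authors. The authors' fold changes and p-values were not used.

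R 4.3.3 and limma 3.58.1 were used to fit each whole table, with lmFit and eBayes without trend, on log2(FPKM + 1), 3 BK KO against 3 WT libraries. The standard errors of the log2 fold changes come from this fit. They are moderated toward a spread estimated from all listed genes, which were themselves chosen as different, and are not ordinary standard errors. The script was tested on simulated data, where 197 of 200 changed genes among 652 in hippocampus and 195 of 200 among 561 in cortex were recovered. Of the unchanged genes, 4 of 452 and 6 of 361 were called. The planted changes were larger than those of Mt1, Mt2 and Crhbp, so recovery at such sizes was not tested. Named genes were Kcnma1, the members, the listed genes of the fixed lists and the 5 genes most like each member. Members and lists were chosen with earlier results of these data known. Promoters of 5 of 5 members were matched by symbol to RefSeq (GRCm38.p6). Other steps used Python 3.11.15 and pandas 2.3.3. Per-library columns left unmatched numbered 0.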

Additional observations from a re-analysis of the deposited data

How the results depend on the processing

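The number of listed genes past the threshold depended on the pseudocount and the size limit more than on other settings. With a pseudocount of 0.1 it was 548 in hippocampus and 408 in cortex, with 0.01 it was 537 and 421, and with a log2 fold change beyond 1 it was 35 and 25, against 278 and 173. The members' counts of 3 and 4 held with either pseudocount, and with a log2 fold change beyond 1 they were 2 and 2, Fkbp5 and Etnppl, since that limit is stricter by construction. No member's direction changed under any setting tried, but the members were picked for being higher, so this adds no support. With each library left out, 230 to 282 genes were past the threshold in hippocampus and 135 to 180 in cortex, and 2 to 3 and 3 to 5 members.

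The replicate number of the labels does not mark a shared mouse between genotypes, and same-numbered WT and BK KO libraries had correlations of -0.24 to 0.12 in their deviations across genes. Fits with this number as a replicate block put 272 genes of hippocampus and 165 of cortex past the threshold, 3 and 4 members among them, and changed no member's call. The correlations without BK KO library 2 were chosen after seeing the data, and their deviations were taken from group means that include it. The depth of the libraries is not known, and the size of the Mt1 difference depended on the scale, FPKM or base mean.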
